A study of Homo sapiens with 4 samples.

Results

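SST, NTS and PENK are 3 neuropeptide genes among the 23364 gene symbols listed in the tables of this series. They were chosen by symbol, with earlier results of these data known, and were read in cells with at least 500 detected genes that had no doublet call. All 3 were listed for both blastoid samples, while the tables of both stem cell samples listed NTS and PENK but not SST. Single-cell 3′ RNA libraries had been made from 4 samples of the established human embryonic stem cell (hESC) line KhES1. The samples hESC 1 and hESC 2 were primed KhES1 cells grown on Matrigel in mTeSR-1 medium, a feeder-free medium for pluripotent cells. The samples blastoid 3 and blastoid 4 were blastoids, which are stem cell aggregates meant as a model of the blastocyst. They were made from the same line by aggregation with the ROCK inhibitor Y27632, embedding in a thermoreversible hydrogel, 3 days in serum-containing DMEM and then iBlastoid medium. All 4 sample titles carry day 0, also those of the blastoids, so the sample descriptions set the groups and no blastoid age is given here. All 4 samples are 1 cell line, and no label says that 2 samples of a group came from separate cultures. The p-values below thus measure no more than the spread between these samples or sets of their cells, which may be technical. In the SST and PENK fits within blastoids, the spread was taken wholly from the trend over genes.

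Neuropeptides are made as larger precursors, cut by proprotein convertases, trimmed and amidated, and stored in dense-core granules until release. SST encodes somatostatin, which acts through inhibitory G protein-coupled receptors and is best known from brain, gut and pancreatic delta cells. NTS encodes the precursor of neurotensin and neuromedin N, peptides of brain and gut that bind the NTSR receptors and sortilin. PENK encodes proenkephalin, the precursor of the opioid enkephalins, and is also known from mesodermal tissues of the embryo. POSTN (periostin) and DCN (decorin) are matrix genes of stromal cells. MESP1 and MSGN1 are transcription factors of mesoderm that has just left the primitive streak.

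Upstream sequences are shown for SST and NTS because the cAMP response element is best known from the somatostatin promoter, and genes of that response are counted below. SST (ENSG00000157005) lies on the minus strand of chromosome 3 at 187668906 to 187670399 (GRCh38, GENCODE v29) and has 2 exons. NTS (ENSG00000133636) lies on the plus strand of chromosome 12 at 85874295 to 85882992 and has 4 exons, and no annotated gene overlaps either. The 250 bases before each start, from RefSeq on GRCh38.p14, are chr3:187670395-187670644 on the minus strand and chr12:85874045-85874294 on the plus strand. Capitals mark the full cAMP response element TGACGTCA, its core CGTCA and the TATA box letters TATAAA, searched on both strands.
SST: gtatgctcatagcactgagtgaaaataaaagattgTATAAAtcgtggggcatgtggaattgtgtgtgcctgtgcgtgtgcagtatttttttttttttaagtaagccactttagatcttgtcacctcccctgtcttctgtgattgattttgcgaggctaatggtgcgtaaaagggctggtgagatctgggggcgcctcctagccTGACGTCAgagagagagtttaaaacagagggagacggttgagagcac
NTS: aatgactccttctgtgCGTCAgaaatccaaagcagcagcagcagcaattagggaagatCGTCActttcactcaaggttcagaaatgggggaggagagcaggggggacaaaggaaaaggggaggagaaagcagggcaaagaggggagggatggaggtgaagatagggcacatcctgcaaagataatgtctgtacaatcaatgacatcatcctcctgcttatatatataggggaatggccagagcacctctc
The full element stood once in the SST sequence, from 47 to 40 bases before the start, and was not found in that of NTS. It was present in 578 of 35116 windows of the same length (1.65%). The 5-base core, which the full element holds on both strands, was found in 21.2% of windows and at 2 places in NTS, at 234 to 230 and 192 to 188 bases before the start. TATAAA was present in 10.7% of windows and in SST once, at 215 to 210 bases before the start. The AP-1 letters TGANTCA, present in 6.57% of windows, were found in neither sequence. The E-box letters CANNTG, present in 61.8% of windows, were found once in SST and are not capitalised. These matches are descriptions of letters and not evidence of binding.

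The 4 libraries held 2238 and 3175 kept stem cells and 2278 and 1916 kept blastoid cells, with median depths of 4996 to 8798 UMIs (counted molecules) per cell. Barcodes are shared between the tables of a group: 1035 stand in both blastoid tables and 1317 in both stem cell tables. Of the kept cells, 1010 of blastoid 4 and 0 of blastoid 3 carry such a barcode, as do 26 of hESC 1 and 1310 of hESC 2. Member levels are therefore also given without those barcodes. The stem cell samples were also checked against their labels: all 10 pluripotency markers of a fixed list were lower in blastoids.

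SST was found in blastoid samples alone, in few cells but at high counts. Blastoid 3 held 926 SST UMIs in 98 of 2278 cells, or 4.30% (exact Clopper-Pearson 95% interval 3.51 to 5.22). Blastoid 4 held 419 SST UMIs in 49 of 1916 cells, or 2.56% (1.90 to 3.37). The level was thus 61.3 CPM (UMIs scaled to a common library total) in blastoid 3 and 23.7 CPM in blastoid 4, a mean of 42.5 ± 26.6 (SD, n = 2). The spread between the blastoid samples is large, and neither stem cell table lists the gene, so no fold change is given. The 10 highest cells held 55.4% of the SST UMIs of blastoid 3 and 73.7% of those of blastoid 4, with up to 124 and 58 UMIs in 1 cell. Cells with at least 5 UMIs, 35 and 18 in number, held 89.0% of the SST UMIs in each sample. Without the single highest cell the levels were 53.1 and 20.4 CPM. With the shared barcodes left out, blastoid 4 stood at 32.6 CPM and 2.76% of cells. When every cell was thinned to 2000 UMIs, 2.58% and 1.33% of the cells kept an SST UMI. These intervals cover counting error only.

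NTS was detected in both groups, and its distribution over cells differed. Its level was 28.7 CPM in hESC 1, 25.9 in hESC 2, 112 in blastoid 3 and 50.3 in blastoid 4, so blastoid samples were higher and also more spread (27.3 ± 1.98 and 81.2 ± 43.6 CPM, SD, n = 2 each). The share of cells with a UMI was 10.7% and 9.35% in stem cells and 19.0% and 16.0% in blastoid cells. Thinned to 2000 UMIs, these shares were 4.16%, 3.95%, 9.17% and 5.98%. Without its shared barcodes the NTS level of blastoid 4 was 26.7 CPM and its share 9.71%. That level lay between the stem cell levels of 28.7 and 23.6 CPM. This step left 906 of the 1916 kept cells of blastoid 4. The NTS-negative cells among them had a median of 6570.5 UMIs, against 8460 with the shared barcodes. The part of depth and of cell types in the lower level and share was not tested. Blastoid 3, which lost no kept cell, stayed at 112 CPM. Cells with at least 5 UMIs held 68.2% and 58.3% of the NTS UMIs of the blastoid samples but 16.5% and 4.37% of those of the stem cell samples. The highest cell had 12 and 8 UMIs in the stem cell samples and 38 and 42 in the blastoid samples.

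In blastoids PENK was found in the fewest cells of the 3 genes. In stem cells it had 3 and 6 UMIs, each in a cell of its own, at 0.226 and 0.377 CPM. In blastoids it had 109 UMIs in 39 cells (1.71%) and 125 UMIs in 22 cells (1.15%), at 7.22 and 7.07 CPM. The blastoid samples nearly coincide (7.14 ± 0.106 CPM, SD, n = 2), but few cells carry that level. In blastoid 4 a single cell held 61 of the 125 UMIs, and without the highest cell of each sample the levels were 6.03 and 3.62 CPM. Without the shared barcodes, blastoid 4 had 23 PENK UMIs in 6 cells, or 4.07 CPM. PENK (ENSG00000181195) has 4 exons and overlaps an antisense gene, AC012349.1. PENK lies on the minus strand and AC012349.1 on the plus strand. Whether counting used strand is not given in the sources used here, and a part of that gene's reads in the PENK counts was not tested.

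**Figure D1:**
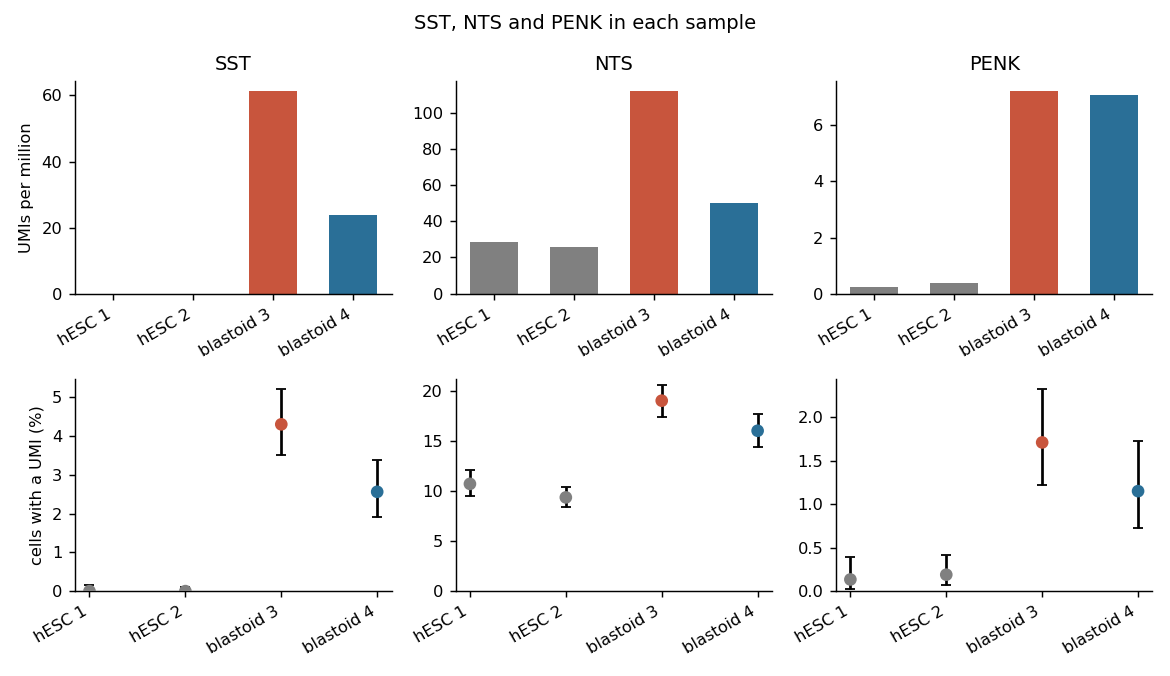
Level of SST, NTS and PENK in CPM (upper bars) and share of kept cells with a UMI in percent (lower points, with exact 95% intervals) in each of the 4 samples. SST is not listed in the stem cell tables and is drawn at 0 there, NTS is highest in blastoid 3 at 112 CPM, and PENK stands near 7 CPM in both blastoid samples.

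Which blastoid cells carried each gene was described with 13 clusters of the 4194 kept blastoid cells, computed without the 3 genes and named only from fixed markers. Those markers include POSTN, DCN, MESP1 and MSGN1, so the names and the overlaps with these genes below are not independent. POSTN and DCN were the only stromal markers among the leading genes of cluster 8, and POSTN the only one for cluster 10. The names are not the study's own, and where the 2 differ the naming here may be the reason. SST lay mainly in the stromal-like clusters 8 and 10, which held 291 and 105 cells (12.8% and 5.48%). These had 91.8% of the SST UMIs of blastoid 3 and 78.5% of those of blastoid 4. There SST was found in 22.0% and 19.0% of cells, so most stromal-like cells had no SST UMI. In the epithelial cluster of amnion- or trophectoderm-like cells, taken here as a guide to RNA free in the droplets, the shares were 0.926% and 0.409%. Free RNA itself was not measured, and in blastoid 4 the 9 SST UMIs of this cluster lay in 2 cells. The median depth of the epithelial cluster, 6781 and 9335 UMIs, was not below the 6263 and 8391 of the stromal-like cells. The higher SST level was in cluster 10 in blastoid 3 (8.24 per 10000 UMIs, against 2.71 in cluster 8) and in cluster 8 in blastoid 4 (4.15, against 2.46). Without the highest cell of each sample, cluster 10 was left with 6.16 in blastoid 3 and 0.822 in blastoid 4. A further 7.56% and 18.9% of SST UMIs lay in the 5 unnamed clusters.

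NTS lay mainly in the nascent mesoderm-like cluster and in the small pluripotent-like cluster. The nascent mesoderm-like cluster had 197 and 37 cells and 52.6% and 35.8% of the NTS UMIs, in 59.9% and 73.0% of its cells. Its level was 5.79 and 8.03 per 10000 UMIs. The pluripotent-like cluster, with 76 and 91 cells, had NTS in 55.3% and 34.1% of cells and 4.42 and 1.21 per 10000 UMIs. It held 19.9% and 16.4% of the NTS UMIs, while the 5 unnamed clusters held 19.4% and 31.7%. Cells of the endothelium- and blood-like cluster carried NTS in 4 of 5 and 7 of 13 cases. In the epithelial cluster the share was 5.56% and 5.93%. Which of the leading clusters was higher depended on the clustering: with 15 principal components, and in each sample clustered alone, the highest NTS level was in the pluripotent-like cluster.

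The cluster with the highest PENK level differed between the samples. In blastoid 3 it was the unnamed cluster 3, led by CRHBP, LIPG and HOXA9, with 0.320 per 10000 UMIs in 14 cells, ahead of the nascent mesoderm-like cluster with 0.280 in 17 cells. In blastoid 4 it was the nascent mesoderm-like cluster, with 1.66 in 4 cells, ahead of the stromal-like cluster 10 (0.573 in 2 cells) and cluster 3 (0.148 in 4 cells). Single cells decided this order. Without the cell with 61 UMIs, the nascent mesoderm-like cluster of blastoid 4 was left with 0.128, and without the highest cell of blastoid 3 its cluster 3 was left with 0.220. In cluster 10 of blastoid 4, 1 cell held 19 of the 20 PENK UMIs. The nascent mesoderm-like cluster held 39.4% and 52.8% of PENK UMIs. The epithelial cluster had PENK in 0 of 216 cells, which allows a share of up to 1.69%, and in 0.818% of 489 cells. SST had 1 UMI in the 197 nascent mesoderm-like cells of blastoid 3 and 0 in the 37 of blastoid 4.

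**Figure D2:**
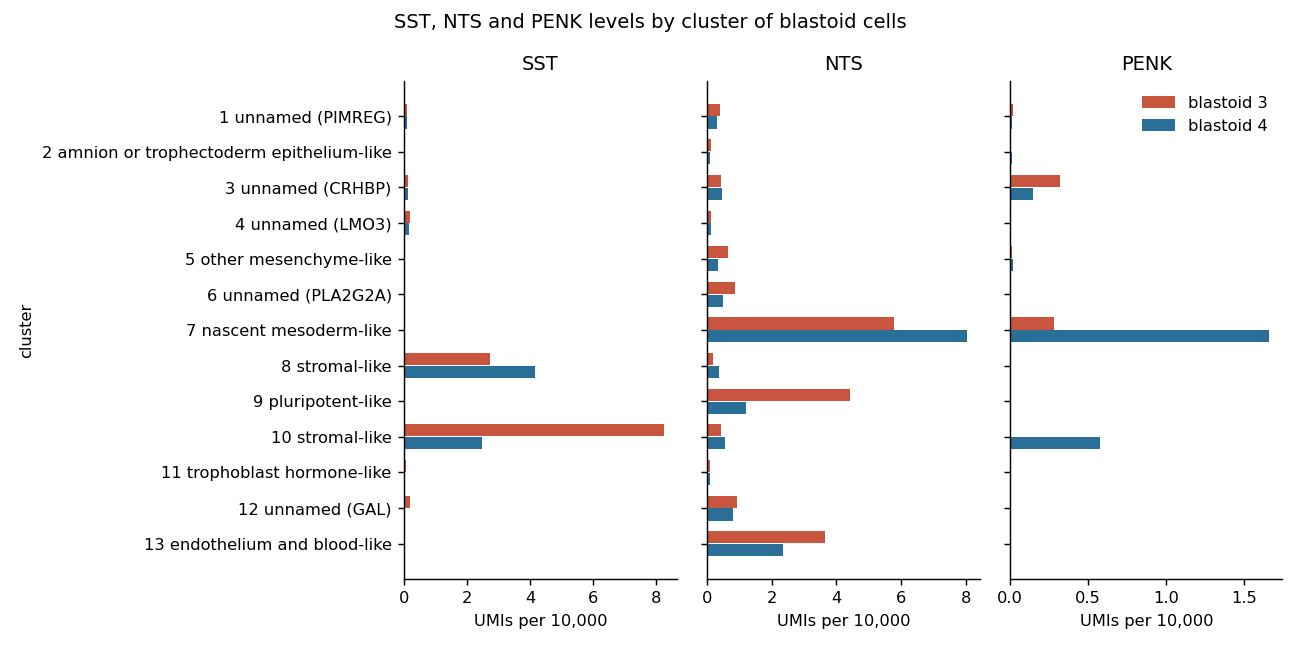
SST, NTS and PENK levels in UMIs per 10,000 UMIs (horizontal bars) for each cluster of blastoid cells, with blastoid 3 and blastoid 4 side by side. SST stands in the stromal-like clusters 8 and 10, NTS in the nascent mesoderm-like and pluripotent-like clusters 7 and 9, and PENK in clusters 7, 3 and, by 1 cell, 10.

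The overlap with the stromal matrix genes was graded by SST count. POSTN or DCN was found in 33.1% and 29.8% of cells with no SST UMI. In cells with 1 SST UMI the share was 57.5% and 44.0%, with 2 to 4 UMIs 91.3% and 50%, and with at least 5 UMIs 91.4% and 94.4%. The steps at 2 to 4 UMIs rest on 23 and 6 cells. Cells with POSTN or DCN and neither mesoderm gene made up 33.8% and 29.1% of cells and held 91.1% and 83.1% of SST UMIs. MESP1 or MSGN1 was found in 4.08% of SST-positive cells in each sample (98 and 49 cells), against 10.8% and 6.47% of all cells. The 49 cells of blastoid 4 are too few to show a share below 6.47%. Since these gene pairs were chosen together with the members, the overlaps are given without a test.

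For NTS the grading ran with the mesoderm genes and against the matrix genes. MESP1 or MSGN1 was found in 6.77% and 4.78% of cells without NTS, in 9.05% and 8.38% with 1 NTS UMI, in 33.6% and 14.9% with 2 to 4, and in 68.5% and 48.8% with at least 5. POSTN or DCN went the other way, from 37.6% and 31.3% of cells without NTS to 10.1% and 7.32% of cells with at least 5 UMIs. Read from the other side, NTS was found in 95% of the 20 cells of blastoid 3 with at least 5 MESP1 UMIs and in all 11 such cells of blastoid 4. NTS-positive cells were deeper than the rest, at medians of 7461 and 10470 UMIs against 5984.5 and 8460. In cells thinned to 2000 UMIs, 27.1% and 10.7% of NTS-positive cells still had a mesoderm UMI.

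PENK followed NTS in direction for the mesoderm genes, with far fewer cells. MESP1 or MSGN1 was found in 17 of 39 and 5 of 22 PENK-positive cells (43.6% and 22.7%), against 10.3% and 6.28% of cells without PENK. POSTN or DCN was found in 20.5% and 18.2% of them, against 35.0% and 30.7% of all cells. The 39 and 22 cells are too few to show a lower share. DCN was lower in PENK-positive cells of both samples (log2 -1.71). POSTN was not called, at 336 CPM in PENK-negative and 36.1 in PENK-positive cells of blastoid 3 but at 112 and 234 in blastoid 4. No cell had both SST and PENK. The 98 and 49 SST-positive cells allow a share with a PENK UMI of up to 3.69% and 7.25%, above the 1.71% and 1.15% of all cells, so these few cells do not show a lack of overlap. NTS was found in 15 of the 39 and 7 of the 22 PENK-positive cells. The 89 and 41 cells with at least 5 NTS UMIs held no SST UMI, where 4.30% and 2.56% of all cells did. The 41 cells of blastoid 4 are too few to show a lack of overlap at 2.56%.

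**Figure D3:**
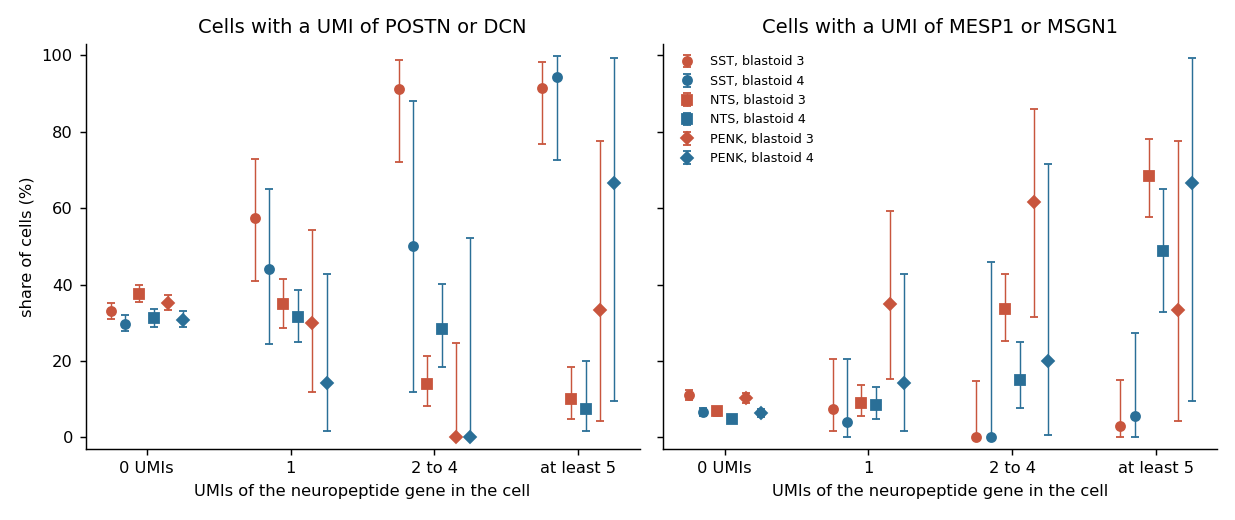
Share of blastoid cells in percent, with exact 95% intervals, that hold a UMI of POSTN or DCN (left) or of MESP1 or MSGN1 (right), by the number of UMIs of SST (circles), NTS (squares) or PENK (diamonds) in the cell. The matrix share reaches 91.4% and 94.4% in cells with at least 5 SST UMIs, and the mesoderm share 68.5% and 48.8% in cells with at least 5 NTS UMIs.

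The genes most like each member were ranked by the lower of the 2 Pearson correlations across the 2278 and 1916 kept cells of the blastoid samples, over 13893 genes. Cells of a sample share a library, the counts are sparse, and the values are descriptions. For SST the order was EGFL6 (r = 0.29 and 0.34), CXCL14 (0.28 and 0.22), COL3A1 (0.24 and 0.20), RGCC (0.19 and 0.30), POSTN, HGF, PDPN and DCN. EGFL6 is a secreted matrix protein, CXCL14 a chemokine, and COL3A1 the chain of type III collagen. For NTS it was MESP1 (0.53 and 0.36), then AC009063.2, NRP2, PCAT14, CD1D, MSGN1, AC108052.1 and MIXL1, with r from 0.21 to 0.36. For PENK the first was MSGN1 (0.19 and 0.22), followed by HOXA-AS3 (0.15 and 0.23). In stem cells no gene had an r above 0.09 with NTS in both samples.

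SST-positive cells were then compared with SST-negative cells of the same sample across all other genes, with UMIs summed per sample and set and the sample as a block. The positive sets held 58 and 24 cells with at least 2 SST UMIs, and the negative sets 2180 and 1867 cells with none. By edgeR's quasi-likelihood test with Benjamini-Hochberg adjustment, 789 of 14225 genes (5.55%) passed an adjusted p of 0.05, with 349 higher (2.45%) and 440 lower (3.09%). The largest rise was that of EGFL6, from 22.9 to 294 CPM in blastoid 3 and from 9.45 to 294 in blastoid 4 (log2 difference 4.18 ± 0.19, SE). CXCL14 stood at 242 and 1350 CPM in blastoid 3 and at 147 and 1610 in blastoid 4 (log2 2.94). Both genes were higher in the positive cells of both samples by far more than the samples differed among themselves.

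Of the other large rises, PDPN (podoplanin, a membrane glycoprotein) rose by 2.38 on the log2 scale, HGF (hepatocyte growth factor) by 2.31, and RSPO2 (an enhancer of Wnt signalling) by 2.12. IGFBP3, which binds insulin-like growth factors, rose by 2.32, from 365 to 2060 CPM in blastoid 3 and from 422 to 1830 in blastoid 4. COL3A1 (log2 2.16), SYT10 (a synaptotagmin, 2.23) and ATP7B (a copper transporter, 2.10) completed the 10. POSTN stood at 274 and 1570 CPM in blastoid 3 and at 107 and 462 in blastoid 4, which the choice of genes had used. Lower in SST-positive cells were the non-coding RNA LINC01356 and ANKRD1, an ankyrin-repeat protein of muscle, with no UMI there (at least 11.8-fold and 7.48-fold lower, from a floor of 3 counts over both positive sets). HPGD, which degrades prostaglandins, had 2 UMIs in positive cells, a ratio of 28.3 (counting interval 7.81 to 233). MIR205HG had 1 (38.6, 6.92 to 1520), as did DMD (21.7, 3.89 to 858).

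By list, stromal genes were on the higher side in SST-positive cells and most epithelial markers on the lower. Of the 10 tested stromal genes other than POSTN and DCN, 5 rose and 0 fell, among them LUM (log2 1.60) and COL1A1 (1.37), and the median of these 10 was 0.77 against -0.11 for all genes. Of 14 amnion and trophectoderm markers 13 fell, among them EPCAM (-3.43), GATA3 (-1.88) and the keratin KRT7 with 2 UMIs left, and the one that rose was IGFBP3. With IGFBP3 in it, the summed level of that list was 32.0 per 10000 UMIs in SST-positive and 28.4 in SST-negative cells of blastoid 3, and 40.7 and 43.1 in blastoid 4. Pluripotency genes fell in 5 of 10 cases. These lists describe the same division of cells as the clusters above.

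Neuronal and neuroendocrine markers did not move 1 way in SST-positive cells. Of 16 markers, 8 and 6 had any UMI in the positive sets, with summed levels of 3.90 and 3.27 per 10000 UMIs against 3.18 and 4.55 in SST-negative cells. Of the 10 tested, 1 rose and 2 fell, of which TUBB3, a neuronal tubulin, stood at 71.8 and 37.3 CPM in blastoid 3 and at 102 and 46.2 in blastoid 4 (log2 -1.03). STMN2, a microtubule regulator of growing axons, was the one called higher (log2 0.53) although it was 123 and 282 CPM in blastoid 3 and 247 and 180 in blastoid 4, in opposite directions. PCSK1 and PCSK2, the convertases of regulated secretion, were too low for their 0 UMIs in the positive sets to be informative, as PCSK1 had 42 and 41 UMIs in the 2180 and 1867 negative cells. CPE, the carboxypeptidase that trims cut peptides, was found in 43.1% and 41.7% of the positive cells, PAM, the amidating enzyme, in 27.6% and 33.3%, and FURIN, a convertase of the constitutive pathway, in 20.7% and 20.8%. None of them was called between positive and negative cells, at log2 differences of -0.6 (CPE), -0.04 (PAM) and -0.5 (FURIN).

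Of 20 tested processing genes, 1 rose and 1 fell in SST-positive cells, near the 2.45% and 3.09% of all genes. CTSL, a cathepsin, rose by 0.91 on the log2 scale (edgeR adjusted p = 2.34e-05). SCG3, secretogranin III, fell by 1.42 (edgeR adjusted p = 0.0133). Of 12 peptide-degrading enzymes 3 rose and 0 fell, with MME (neprilysin) at log2 1.69 (edgeR adjusted p = 6.85e-13), LNPEP at 1.04 and ECE1 at 0.93. LNPEP turned to -0.29 within the stromal-like clusters and ECE1 to -0.15 in cells thinned to 2000 UMIs, and neither passed there. Among receptors, ACKR3, a scavenging receptor of CXCL12 and opioid peptides, rose by 1.04, and SORT1 (sortilin) fell by 1.65. Of 17 other peptide genes, STC1 rose (2.00) and GAL (-1.71), TAC3 (-1.38) and CRH fell. STC1, a leading gene of the stromal-like cluster 10, turned to -0.52 within the stromal-like clusters and did not pass there. Of 16 cAMP and CREB response genes 0 rose and 3 fell, including FOS (-0.97), with a list median of -0.42 against -0.11 for all genes.

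The comparison was repeated inside the clusters that held most SST. Within the stromal-like clusters, 46 and 15 positive against 227 and 85 negative cells, 9 of 7133 genes passed, in a comparison added after seeing the data. EGFL6 (log2 1.20 ± 0.17) and RGCC, a regulator of the cell cycle (1.55 ± 0.25), were higher, as were the histone genes HIST1H4C and HIST1H1D. HIST1H4C stood at 3560 and 3970 CPM in negative and positive cells of blastoid 3, and at 2800 and 5820 in blastoid 4. HIST1H1D stood at 388 and 436, and at 311 and 887, so most of both rises lay in blastoid 4. FN1 (fibronectin, -0.94), MGP (matrix Gla protein, -1.48), SLIT2, ADAMTS1 and PGM5 were lower. This comparison pools clusters 8 and 10, and cluster 8 held 30 of the 46 positive but 137 of the 227 negative cells in blastoid 3, and 12 of 15 against 42 of 85 in blastoid 4. RGCC was higher in cluster 8 (0.871 and 1.28 per 10000 UMIs, against 0.156 and 0.286 in cluster 10), as was EGFL6 (2.31 and 2.36, against 1.94 and 1.37), while MGP was higher in cluster 10 (3.55 and 2.89, against 0.857 and 0.393). The part of that division in these calls was not tested. Within the pooled clusters CXCL14 (-0.28), HGF (-0.16) and COL3A1 (-0.12) had the opposite sign and did not pass. The SST fit has 4 sums and 1 residual degree of freedom, with the spread taken wholly from the trend over genes, and DESeq2 called 223 genes and a fit without the sample block 293.

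NTS-positive cells, 211 and 115 with at least 2 UMIs against 1846 and 1610 with none, differed in 901 of 14381 genes (6.27%), with 458 higher (3.18%) and 443 lower (3.08%). MESP1, which the choice of genes had used, stood at 7.03 and 177 CPM in blastoid 3 and at 4.23 and 88.3 in blastoid 4. Among genes with an average log2 CPM of at least 5, GAL, the precursor of the neuropeptide galanin, was the next, at 18.9 and 178 CPM in blastoid 3 and at 30.9 and 238 in blastoid 4. Its log2 difference was 3.08 ± 0.12 (edgeR adjusted p = 4.06e-07), and the positive sets were higher in both samples. PLA2G2A (a secreted phospholipase) rose by 2.66, APLNR (the apelin receptor) by 2.36, NRP2 (neuropilin 2) by 2.20, DMD (dystrophin) by 2.14 and FGF19 by 2.11. POU5F1, the pluripotency factor, rose by 2.12, from 35.2 to 183 CPM in blastoid 3 and from 73.0 to 268 in blastoid 4. The non-coding RNAs LINC01356 (2.38) and PCAT14 (2.31) rose as well.

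Lower in NTS-positive cells were PAPPA2 (-3.14), VTCN1 (-2.88), GABRP (-2.75) and NR2F2 (-2.64). PAPPA2 is a placental protease, and VTCN1 and GABRP are amnion and trophoblast markers. SST, itself a chosen member, stood at 68.7 CPM in NTS-negative and 0 in NTS-positive cells of blastoid 3, and at 28.2 and 1.52 in blastoid 4. The 1.52 is 2 UMIs, and the ratio over both samples was 72.6 (counting interval 20.1 to 600). That interval takes UMIs as independent and is too narrow. Cells with at least 5 SST UMIs held 89.0% of the SST UMIs in each blastoid sample. Of 12 nascent mesoderm genes other than MESP1 and MSGN1, 11 rose and 0 fell, among them MIXL1 (log2 4.32), TBXT (brachyury, 3.71) and EOMES (3.40). Pluripotency genes rose in 5 cases and fell in 1, PODXL (-1.26). Of 14 amnion and trophectoderm markers 7 fell and 0 rose.

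Of 20 tested processing genes, 4 rose and 1 fell in NTS-positive cells, against 3.18% and 3.08% of all genes. PCSK1 stood at 1.59 and 11.9 CPM in blastoid 3 and at 1.97 and 6.85 in blastoid 4 (log2 2.40, edgeR adjusted p = 0.00936). QPCT, which forms the pyroglutamate end that neurotensin carries, rose by 1.57, FURIN by 1.00 and SCG3 by 0.76, while CTSL fell by 0.96. Of the other peptide genes GAL, NMU (neuromedin U, 1.17), TRH (2.68) and NPW rose, and TAC3, CRH and NPPB fell. The NTS-positive sets pool clusters: 95 and 24 of their cells were nascent mesoderm-like and 34 and 18 pluripotent-like. GAL was at 5.31 and 5.39 per 10000 UMIs in the pluripotent-like cluster, of which it is a leading gene, against 0.436 and 0.755 in the nascent mesoderm-like cluster. PCSK1 was at 0.197 and 0.183 in the pluripotent-like and at 0.117 and 0.0503 in the nascent mesoderm-like cluster. Within the nascent mesoderm-like cluster GAL was at log2 1.23 and did not pass, and PCSK1 had too few UMIs to be tested. Of the cAMP and CREB response genes PDE4D rose (0.99) and 4 fell, including FOS (-1.02). Within the nascent mesoderm-like cluster, 95 and 24 against 79 and 10 cells, 79 of 6419 genes passed, including SERPINB9 (2.68), HPGD (3.93), KDR (1.88) and POU5F1 (1.78) higher and COL6A3 (-2.62) lower. There MIXL1 was at 3.55 and 133 CPM in blastoid 3 but at 158 and 128 in blastoid 4.

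The NTS sets differed in depth, with medians of 8053 and 11348 UMIs in positive against 5984.5 and 8460 in negative cells, and the part of depth in these calls was not tested. In cells thinned to 2000 UMIs 231 genes passed, and without the shared barcodes 476, with 23 positive cells left in blastoid 4. DESeq2 called 291 genes and a fit without the sample block 90.

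**Figure D4:**
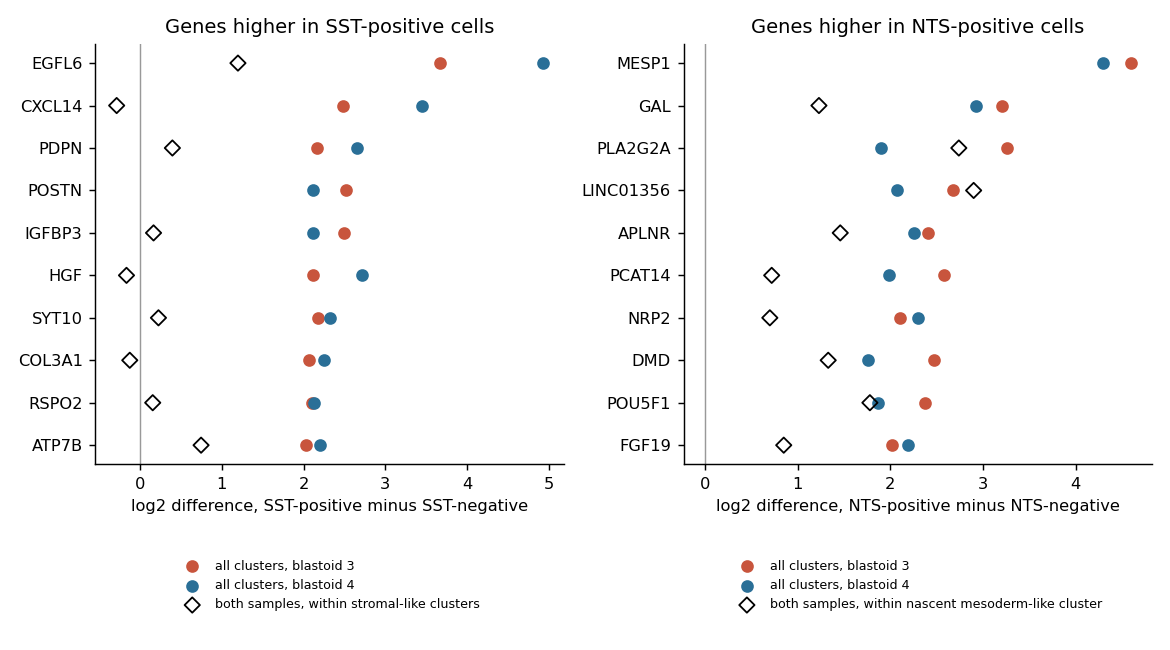
Log2 difference (horizontal axis) between SST-positive and SST-negative cells (left) and between NTS-positive and NTS-negative cells (right) for the 10 largest rises in each, with 1 filled point per blastoid sample and an open diamond for the fit within the stromal-like or nascent mesoderm-like clusters. POSTN and MESP1 have no diamond because the choice of genes used them. Within the stromal-like clusters most SST diamonds lie near 0 and that of EGFL6 at 1.20, while the NTS diamonds lie above 0.

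For PENK too few cells reached 2 UMIs (19 and 8), and cells with at least 1 UMI, 39 and 22, were compared with the 2239 and 1894 others in a comparison added after seeing the data. Of the PENK-positive cells, 17 and 4 were nascent mesoderm-like and 20 and 9 lay in the unnamed clusters. The part of cell types in the calls was not tested. By edgeR's quasi-likelihood test 199 of 14220 genes (1.40%) passed, with 70 higher (0.492%) and 129 lower (0.907%). NTS, whose overlap was part of the choice, stood at 110 and 304 CPM in blastoid 3 and at 49.7 and 347 in blastoid 4. Few cells carried the latter: of the 77 NTS UMIs in PENK-positive cells of blastoid 4, single cells held 36, 23 and 14. NRP2 (log2 1.63), WNT5B (a non-canonical Wnt ligand, 1.49), DUSP6 (a phosphatase of ERK, 1.49), FGF19 (1.36), SPRY1 (a feedback inhibitor of receptor tyrosine kinases, 1.29) and HOXB9 (1.26) rose. The imprinted gene MEST rose by 1.34, and the RNAs PCAT14 and HOXB-AS3 by 1.61 and 1.34. CXCL12 and ANXA1 had 1 UMI each in these cells. Among processing genes PCSK5 rose (1.28) and VGF fell with 1 UMI left (ratio 10.6, 1.90 to 419). No gene passed with the sample block left out (edgeR, with 844 at an unadjusted p under 0.05), and DESeq2 called 40. The PENK fit has 4 sums and 1 residual degree of freedom, with the spread taken wholly from the trend over genes.

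The remaining genes of the pathway were compared between the groups. By edgeR's quasi-likelihood test with Benjamini-Hochberg adjustment, 8157 of 16332 genes (49.9%) passed between blastoids and stem cells, with 4429 higher (27.1%) and 3728 lower (22.8%). Any list is therefore read against a call in about every other gene. In bulk sums over cells, more cells of a type and more RNA per cell cannot be told apart. Scaling by library size alone moved the median of all genes from 0.05 to 0.18.

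Of 23 tested processing and granule genes, 9 were higher, 6 lower and 8 not called, with a median log2 difference of 0.33 against 0.05 for all genes. Among the 9 higher genes, CPE stood at 17.2 and 17.3 CPM in stem cells and at 74.5 and 80.4 in blastoids (log2 2.17 ± 0.13, edgeR adjusted p = 3.03e-05). FURIN stood at 8.41, 8.31, 40.7 and 36.2 CPM in the same order (2.20 ± 0.15), and PAM at 17.3, 14.9, 37.4 and 36.7 (1.21 ± 0.15). Both blastoid samples were above both stem cell samples for each of these, where 27.1% of all genes were called higher. The share of all genes with such a separation was not counted. PCSK1 was low throughout, at 0.160, 0.584, 2.56 and 2.30 CPM (2.62 ± 0.50, edgeR adjusted p = 0.00449). PCSK5 (2.00), PCSK7 (0.94) and the cathepsins CTSL (1.51) and CTSB (2.17) were higher as well.

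Among the 6 lower genes, CHGA, a granule protein, fell from 12.1 and 15.4 CPM in stem cells to 0.366 and 0.450 in blastoids (-5.05 ± 0.30, edgeR adjusted p = 2.55e-05). SCG3 was 120 and 135 CPM in stem cells and 33.1 and 42.8 in blastoids (-1.75 ± 0.16). SCG5 (the PCSK2 chaperone 7B2, -1.51), PCSK1N (the PCSK1 inhibitor proSAAS, -1.28), CADPS2 (-2.56) and PTPRN2 (-2.15) were lower as well. PCSK2 and SCG2 had too few UMIs to be tested.

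Among 14 receptor genes 6 could be tested, and 2 were higher and 1 lower. SSTR2, a somatostatin receptor, stood at 15.9 and 19.3 CPM in stem cells and at 3.72 and 3.04 in blastoids (-2.38 ± 0.21, edgeR adjusted p = 0.000137). The gene of the ligand SST and that of this receptor thus had their higher level in different groups. SORT1, which binds neurotensin, was similar in level (-0.05 ± 0.15, edgeR adjusted p = 0.812). ACKR3 had 3 UMIs in stem cells and 978 in blastoids (ratio 290, counting interval 99.0 to 1410), and OGFR, the opioid growth factor receptor, rose by 0.94. NTSR1 had 3, 5, 0 and 1 UMIs in the 4 samples and was not tested. The delta opioid receptor OPRD1 was not called, at 0.905 and 2.01 CPM in stem cells and 1.85 and 7.69 in blastoids. In blastoid 4, 123 of its 136 UMIs lay in the epithelial cluster.

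Of 13 tested peptide-degrading enzymes 6 were higher and 1 lower. LNPEP rose by 2.77, MME, which cleaves enkephalins, by 1.63, and ECE1 by 1.37. NLN (neurolysin), which cleaves neurotensin, fell from 102 and 113 CPM to 39.2 and 40.2 (-1.43 ± 0.13, edgeR adjusted p = 0.000152).

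Among 30 tested genes of other peptides 9 were higher, 11 lower and 10 not called, with a median of -0.32. NPY (neuropeptide Y) stood at 0.160 and 0.195 CPM in stem cells and at 40.8 and 34.9 in blastoids (7.66 ± 0.28, edgeR adjusted p = 5.84e-06). GAL, which rose with NTS within blastoids, was higher in stem cells, at 189 and 169 CPM against 36.1 and 47.9 (-2.09 ± 0.17). CRH, at 0 UMIs in stem cells, was at least 117-fold higher in blastoids, TAC3 rose by 1.72, and TAC1 (-3.53) and ADM (-2.16) fell.

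Of 16 tested cAMP and CREB response genes 9 were higher and 0 lower, with a median of 1.18 against 0.05 for all genes. FOS stood at 13.2 and 14.4 CPM in stem cells and at 394 and 528 in blastoids (5.06 ± 0.20, edgeR adjusted p = 7.69e-06). RGS2 (2.72), DUSP1 (2.84), JUNB (2.22), NR4A1 (1.80) and PDE4D (4.95) were higher as well, while CREB1 was not called (0.12). FOS, JUNB and DUSP1 are immediate early genes that many stimuli induce. Within blastoids FOS was called lower in the SST-positive and NTS-positive cells, as given above, and also in the PENK-positive cells (log2 -0.8). Whether cAMP signalling has a part in the levels of the 3 genes was not tested.

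**Figure D5:**
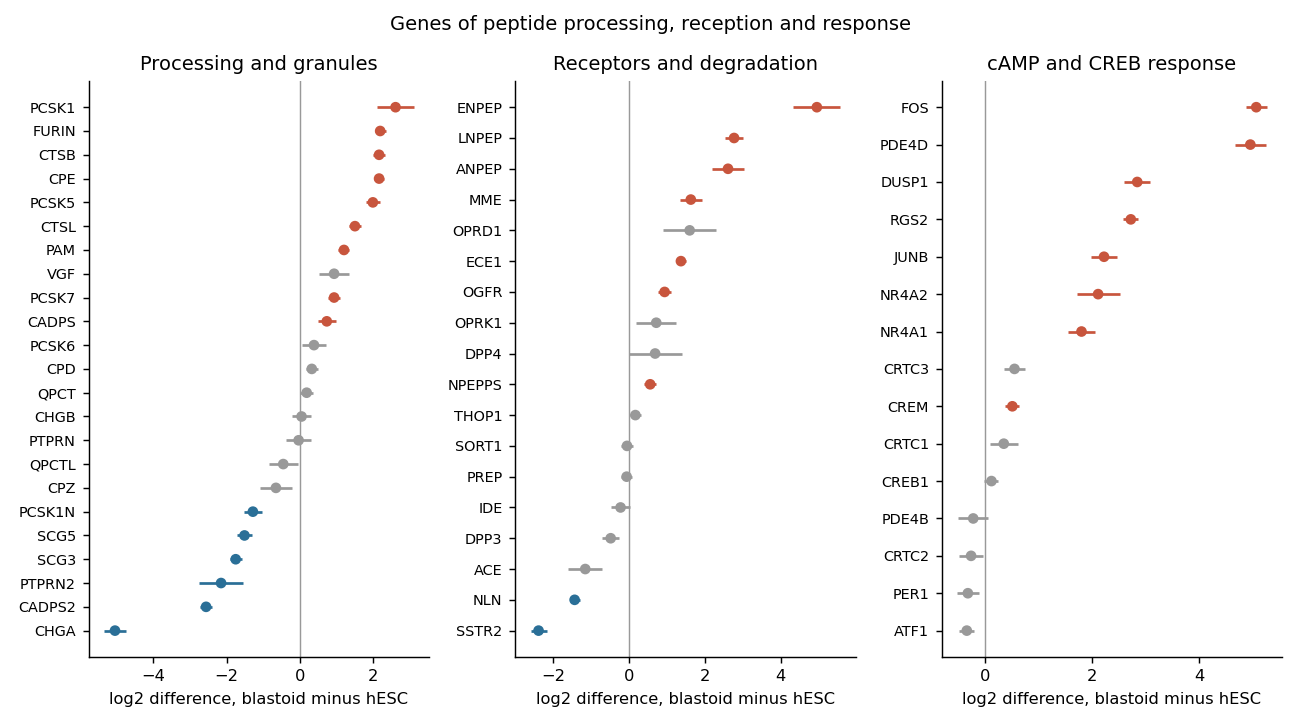
Log2 difference between blastoid and stem cell samples (horizontal axis, with standard errors) for the tested genes of neuropeptide processing and granules, of receptors and degradation, and of the cAMP and CREB response, without genes at 3 or fewer UMIs in a group; red points were called higher, blue points lower, and grey points were not called. CPE, FURIN and PAM lie to the right and CHGA, SCG3, SSTR2 and NLN to the left, and FOS lies at 5.06.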

How the data were processed

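The authors deposited 1 table of UMI counts per sample, made with Cell Ranger on GRCh38, per the submitters' processing notes; versions, annotation and filters are not given in the sources used here. The values are whole-number counts. Cells with at least 500 genes and at most 20% mitochondrial UMIs were kept. Scrublet in scanpy 1.11.5 (expected rate 6%) marked 73 of 9680 cells (0.754%, none in hESC 2) as doublets, which were left out, so 9607 cells remained. A gene missing from a table was taken as 0 there. The 2000 most variable genes without the 3 members, 30 principal components, 15 neighbours and Leiden resolution 0.5 (leidenalg 0.10.2) gave the clusters. Summed counts of kept cells (13255214 to 17679447 UMIs per sample) were tested with edgeR 4.0.16 (quasi-likelihood test, TMM, filterByExpr, Benjamini-Hochberg). An adjusted p under 0.05 was a call. CPM values are TMM-scaled beside these tests. The steps were tested on simulated data.

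Members, lists and tests were chosen with earlier results of these data known. Named genes were the members, the rule's 4 partner genes, genes of the 5 pathway lists, the 8 most alike genes per member (at least 20 cells), and the 10 largest rises and 5 largest falls at an average log2 CPM of 5 or more and with 1 direction in both samples. Genes named beyond these, such as those within 1 cluster class, were chosen after their values were seen. DESeq2 1.42.0, library-size scaling, no low-count filter, left-out samples, other cell filters, cut-offs, thinning and clusterings were the alternatives.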

Additional observations from a re-analysis of the deposited data

Results flagged for a closer look

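Barcodes with fewer than 500 genes entered only the alternatives over all barcodes and no main comparison, but some held the members above the stem cell level. In blastoid 3, SST was at 28.6 CPM there (13 UMIs in 6 of 1198 barcodes), against 61.3 CPM in kept cells and 0 in the left-out barcodes of both stem cell samples. Of those 6 barcodes, 5 also held SST in the table of blastoid 4. NTS was at 96.8 CPM in the left-out barcodes of blastoid 3 (44 UMIs in 29 barcodes, 17 of which held NTS in blastoid 4). It was at 74.6 CPM in those of blastoid 4, from 4 UMIs in 120 barcodes, against 22.2 and 26.1 CPM in those of hESC 1 and hESC 2.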

How the results depend on the processing

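Between blastoids and stem cells, 54 pathway genes were called, from lists with 23, 6, 13, 30 and 16 tested genes. Of all 16332 tested genes, 49.9% were called, so the 54 calls are to be read against that share. The count of called pathway genes stayed within 1.5 times of 54 under all alternatives run. The count over all genes, 8157, ranged from 4896 to 10157 when 1 sample was left out, a lone sample being assumed to vary like the other group, and was 4896 without hESC 1 and 5114 without hESC 2. No paired analysis was possible because the groups share no replicate numbers. All 263 refitted values of 24 named genes kept their direction and call. The share of higher calls went from 54.3% to 63.1% with library-size scaling.

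Calls within blastoids moved more. The SST count of 789 became 223 with DESeq2, 293 without the sample block, 58 in thinned cells and 9 within the stromal-like clusters. The NTS count of 901 became 291 with DESeq2, 1393 without a low-count filter, 90 without the block, 1458 and 1421 at cuts of 1 and 5 UMIs, 231 in thinned cells, 476 without shared barcodes and 79 within 1 cluster class. The PENK count of 199 became 40 with DESeq2 and 0 without the block. Of the refitted values of named genes, 165 of 215 for SST, 163 of 192 for NTS and 46 of 65 for PENK kept direction and call. Reversed were, within the stromal-like clusters, CXCL14 (-0.28), HGF (-0.16), COL3A1 (-0.12), STC1 (-0.52) and LNPEP (-0.29), and in thinned cells ECE1 (-0.15). The cause was not tested.

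Mean shares over the blastoid samples moved with depth and cut. Thinned, the share of cells with SST went from 3.43% to 1.96%, with NTS from 17.5% to 7.57% and with PENK from 1.43% to 0.693%. With at least 2 UMIs these were 1.90%, 7.63% and 0.626%, and the NTS share was 14.4% over all barcodes and 14.3% without shared ones. The share of SST-positive cells with POSTN or DCN went from 70.4% to 87.4% at 2 SST UMIs. That with MESP1 or MSGN1, 4.08% also without either blastoid replicate, was 2.89% thinned, 2.95% at 2 SST UMIs, 3.93% with doublets kept, 2.04% without shared barcodes and 0 at 2 partner UMIs. NTS-positive cells with POSTN or DCN went from 25.6% to 10.1% thinned, 16.6% at 2 NTS UMIs and 16.5% at 2 partner UMIs, and those with MESP1 or MSGN1 from 21.8% to 37.6% at 2 NTS UMIs. PENK-positive cells with POSTN or DCN went from 19.3% to 14.3% thinned and 3.55% at 2 partner UMIs. The highest cluster level of SST, 6.06 per 10000, was 2.65 in an unnamed cluster of blastoid 4 alone. That of NTS, 6.25, was 4.36 with 15 components and 7.23 and 1.20 in each sample alone, in pluripotent-like clusters. The cause was not tested. Not run were the fits within blastoids without a blastoid replicate, which leave no residual degrees of freedom, and those with under 10 positive cells in a sample: PENK at 2 or more UMIs, thinned, within a class, and SST and PENK without shared barcodes.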
